A study of Homo sapiens with 4 samples.

Results

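The genes described here are 44 p53 targets and apoptosis regulators, taken by symbol from the 62443 gene identifiers of an mRNA-seq table of EA.hy926 cells. Of these, 29 are p53 target genes and 15 belong to the BCL2 family, the caspases and their regulators. BAX and BBC3 belong to both families and were counted once, as p53 targets. EA.hy926 is a human hybrid line in which endothelium of the umbilical vein was fused to A549 lung carcinoma cells. The cells received a miR-187 mimic or a negative control mimic (miR-NC), each a synthetic short RNA delivered by lipid transfection, and 2 libraries were sequenced for each. The sources used here give no dose for these libraries, and the general transfection protocol gives a collection time without tying it to them. They also do not state that replicates were grown apart, and a p-value then covers only the scatter of 4 libraries, which may be technical. Each value is an FPKM, the fragments of a gene scaled to its transcript length and to all mapped fragments of the library, so that levels of different genes can be set side by side.

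The transcription factor p53 is stabilised when DNA is damaged, and it switches on genes that stop the cell cycle, repair DNA, adjust metabolism or start cell death. MDM2 and MDM4 hold p53 in check, and because MDM2 is itself a p53 target, p53 and MDM2 form a feedback loop. Death that starts in mitochondria is set by the BCL2 family, in which BAX and BAK1 open the outer membrane and BCL2L1 and MCL1 prevent it. Cytochrome c then joins APAF1 and CASP9 in the apoptosome, whereas death receptors such as FAS act through CASP8. In endothelial cells these pathways take part in the loss of vessel cells under radiation, chemotherapy and inflammation.

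The transfected RNAs come first, because a mimic can lower any mRNA that carries a match to bases 2 to 8 of its sequence, the seed. Both were read from the study's list of mimics, and the seed is in capitals. The miR-187 mimic has the letters of hsa-miR-187-3p in RefSeq, encoded at chr18:35904835-35904856 on the minus strand of GRCh38.p14, and the miR-NC mimic is a designed control.
miR-187 mimic: uCGUGUCUuguguugcagccgg
miR-NC mimic: uUGUACUAcacaaaaguacug

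The transcripts of the members were read for matches to both seeds. A match of 7 bases to miR-187 (AGACACG or GACACGA) was found in the longest annotated 3′ UTR of 1 of the 44 genes (2.27%), against 311 of 7120 tested genes with an annotated 3′ UTR (4.37%). That gene was CASP8, the initiator caspase of death receptors. Over whole annotated transcripts, with coding sequence and 5′ UTR, such a match was found in 12 of 13 transcripts of BCL2L12 and in 1 to 3 transcripts each of AEN, GDF15, CASP8, APAF1, DIABLO and CFLAR. A match of 7 bases to the miR-NC mimic (TAGTACA or AGTACAA) was found in 8 of the 44 genes (18.2%), against 1021 of the 7120 tested genes (14.3%). These 8 were MDM2, MDM4, BTG2, FAS, TP53INP1, SESN1, BID and CFLAR. Over whole transcripts, genes outside these 8 also held a miR-NC match. They were SPATA18 (9 of 10 transcripts) and, with 1 to 6 transcripts each, POLH, TP53I3, CASP6, APAF1, DIABLO and XIAP. For neither mimic was the whole-transcript share counted over all tested genes. The median 3′ UTR length was 1698.5 bases over the 44 genes and 1397 bases over the tested genes. The CASP8 site lies at chr2:201287103-201287109, the MDM4 site at chr1:204557354-204557360, the BTG2 site at chr1:203308781-203308787 and the FAS site at chr10:89014780-89014787, all on the plus strand of GRCh38 in GENCODE transcripts. They show the miR-187 match and 3 of the miR-NC matches, with the matched bases in capitals and 10 bases on each side. A match is a description of letters and not a measured binding site.
CASP8, miR-187 match: aataaataccAGACACGtacaaaatcc
MDM4, miR-NC match: taaatttggaTAGTACAttctatcctg
BTG2, miR-NC match: tgtctgtctcAGTACAAtccaaatttg
FAS, miR-NC match: cagtgtatgtTAGTACAAatgtctatcc

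The libraries differed in ways that touch every value given here. With miR-187, 7290 and 7189 genes stood at 1 FPKM or more, against 8098 and 8868 genes with miR-NC, and the 100 most abundant genes took 69.8% and 70.2% of all FPKM with miR-187 and 64.2% and 61.7% with miR-NC. Mitochondrial genes took 22.8% and 24.2% of all FPKM with miR-187 and 19.3% and 18.4% with miR-NC. Over the 8196 tested genes the median log2 fold change, miR-187 over miR-NC, was -0.39. After median-of-ratios scaling, which sets the typical gene of every library to the same level, it was -0.01. Changes are therefore given on the deposited FPKM and again after the scaling. The miR-NC 2 library lay above the miR-NC 1 library in 80.4% of tested genes and in 32 of the 37 tested members, and in 21 of these 37 after the scaling. Nothing in the deposited values gives the depth of the libraries. Of the endothelial markers, 9 were matched, and their summed level was 68.8 and 67.3 FPKM with miR-187, against 125 and 153 FPKM with miR-NC. CDH5 and ESAM passed the test in that direction, with CLDN5 and EMCN listed at 0 in every library and VWF and KDR below 1 FPKM. The 7 epithelial markers, nearly all of it KRT8 and KRT18, summed to 4297 and 4395 FPKM with miR-187 and to 4230 and 4115 FPKM with miR-NC. The 5 fibroblast markers stayed below 0.2 FPKM in sum. In bulk RNA fewer cells of a type and less RNA per cell cannot be told apart, and the part of these library differences in the results was not tested.

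To see how the p53 and apoptosis genes differed between miR-187 and miR-NC cells, members that reached 1 FPKM in 2 or more libraries were tested within a fit over all genes. Of the 44 members 37 passed this filter. With miR-187, 12 of them were lower and 1 was higher by limma's adjusted p under 0.05, and 24 did not pass. Among all 8196 tested genes 27.3% were called lower and 1.49% higher, so the share of members called lower (32.4%) lay close to the background. Both miR-187 libraries lay below both miR-NC libraries in 23 of the 37 tested members, and in 65.4% of all tested genes. They lay above in 4 of the 37, and in 5.93% of all tested genes. Groups that do not overlap in the lower direction are thus common and do not set a member apart. The 8 p53 targets that fell were CCNG1, GADD45A, PLK3, DDB2, AEN, FAS, PHLDA3 and GDF15, and FDXR was the p53 target that rose. FAS is counted among these 8 and among the 12, but it reached 1 FPKM only in the miR-NC libraries. It could therefore be tested only as lower, and its call adds nothing to these counts. BAK1, BAD, BCL2L1 and CFLAR fell in the BCL2 and caspase family, and none of that family rose. After median-of-ratios scaling 2 of the 37 were lower (CCNG1 and BAK1, against a background of 3.7%) and 3 were higher (XPC, FDXR and TP53I3, against 4.67%). Without the filter, over 25001 genes, neither a member nor any other gene passed, with 4189 genes at an unadjusted limma p under 0.05.

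The 24 tested p53 targets had a median log2 fold change of -0.22, and 14 of them lay above the all-gene median of -0.39 and 10 below it. The 13 tested BCL2 and caspase genes had a median of -0.58, with 4 above the all-gene median and 9 below it. After the scaling, the medians were 0.09 for the p53 targets and -0.15 for the BCL2 and caspase genes, so the sign of the p53 median depends on the scaling. The difference between the families was not tested, since genes are not replicates. The 7 members that were not tested are described with their values.

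**Figure D1:**
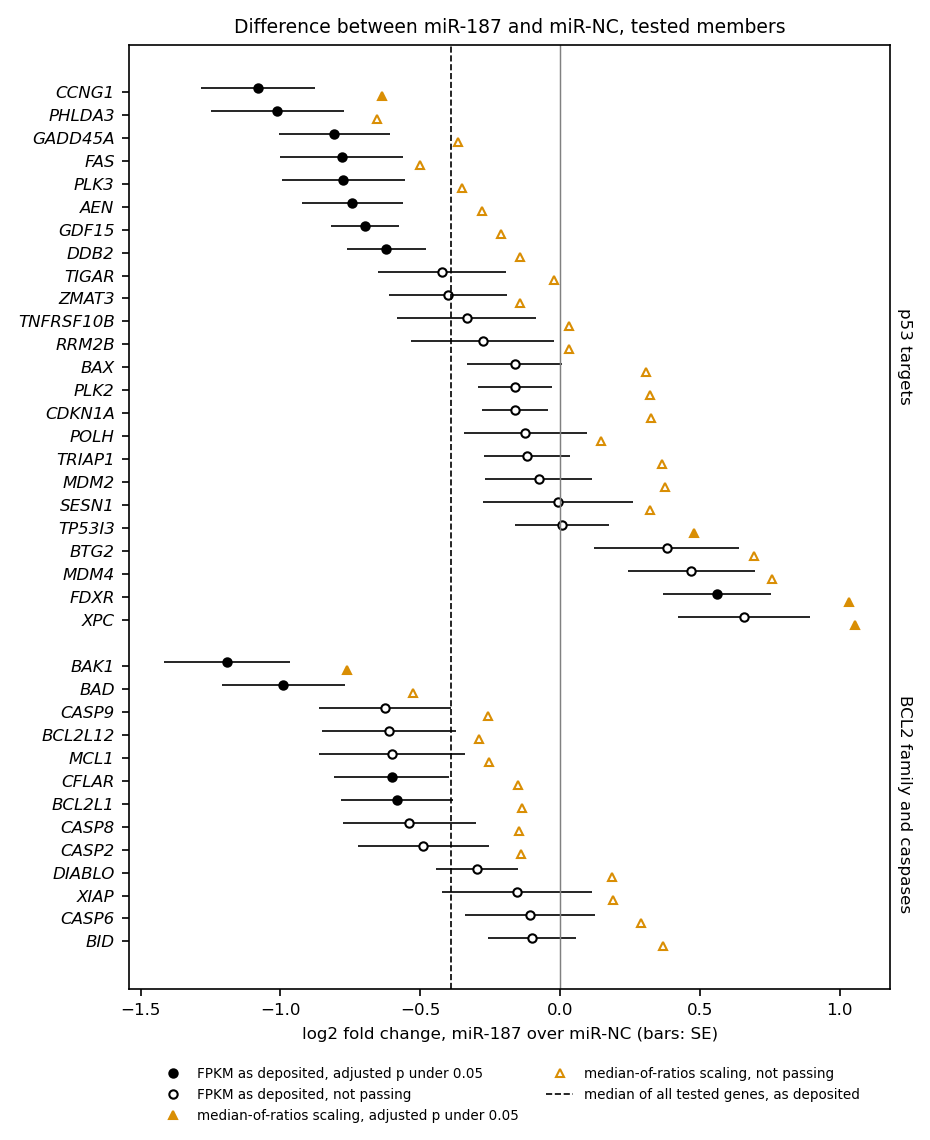
Log2 fold change of each tested member, miR-187 over miR-NC (x axis, log2(FPKM + 1) scale, bars on the circles are standard errors), on FPKM as deposited (circles) and after median-of-ratios scaling (triangles), filled where the adjusted p was under 0.05. The dashed line is the median of all tested genes on the deposited values, -0.39. Among the circles BAK1 (-1.19) and CCNG1 (-1.08) lie farthest to the left and XPC (0.66) and FDXR (0.56) farthest to the right.

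Among the genes that feed back on p53, CCNG1 fell and MDM2 and MDM4 did not pass the test. CCNG1 encodes cyclin G1, a p53 target that brings the phosphatase PP2A to MDM2. Its level was 7.26 and 6.69 FPKM in the miR-187 libraries, against 13.8 and 18.3 FPKM in the miR-NC libraries. Each miR-187 library lay below each miR-NC library by a wide margin, and 65.4% of all tested genes were separated in this direction. The log2 fold change was -1.08 ± 0.20 (SE, limma adjusted p = 0.00314), and CCNG1, at chr5:163437569-163446151 on the plus strand of GRCh38, was still lower after median-of-ratios scaling (-0.64, adjusted p = 0.036).

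MDM2, the ubiquitin ligase that marks p53 for degradation, was measured at 12.6 and 12.0 FPKM with miR-187 and at 11.5 and 14.7 FPKM with miR-NC. The groups overlapped (log2 fold change -0.08 ± 0.19, adjusted p = 0.774). MDM4, the partner of MDM2 that blocks the p53 activation domain, was measured at 1.71 and 2.14 FPKM with miR-187 and at 0.983 and 1.24 FPKM with miR-NC. Both miR-187 libraries were above both miR-NC libraries, a separation that 5.93% of tested genes showed in this direction, but the difference did not pass the test (0.47 ± 0.23, adjusted p = 0.129), nor after the scaling (0.76, adjusted p = 0.0516). It passed under quantile normalization (0.87, adjusted p = 0.0418). PPM1D, the phosphatase that switches off p53 signalling, was below the filter at 0.665 and 0.631 FPKM with miR-187 and 0.55 and 1.34 FPKM with miR-NC.

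The growth arrest genes held the most abundant effector of the p53 pathway and 2 genes that fell. CDKN1A encodes p21, the inhibitor of cyclin-dependent kinases that stops the cell cycle in G1. Its level was 153 and 176 FPKM with miR-187 and 174 and 194 FPKM with miR-NC. The groups overlapped narrowly, and CDKN1A did not pass the test (-0.16 ± 0.12, adjusted p = 0.298). PLK2, a polo-like kinase, was also abundant at 60.4 and 59.4 FPKM with miR-187 and 64.1 and 70.2 FPKM with miR-NC (-0.16 ± 0.13, adjusted p = 0.347). Both of these genes had positive values after the scaling (0.33 for CDKN1A and 0.32 for PLK2), where they did not pass either.

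GADD45A, a stress sensor that binds CDK1 and PCNA, and PLK3, another polo-like kinase, were the growth arrest genes that fell. GADD45A was at 6.80 and 6.89 FPKM in miR-187 libraries, against 12.0 and 13.5 FPKM in miR-NC libraries. PLK3 was at 5.49 and 4.30 FPKM in miR-187 libraries, against 8.70 and 9.38 FPKM in miR-NC libraries. Neither gene overlapped between the groups, as in 65.4% of all tested genes in this direction. The ratio of means, miR-187 over miR-NC, was 0.537 for GADD45A and 0.541 for PLK3. The log2 fold changes were -0.81 ± 0.20 (adjusted p = 0.0113) for GADD45A and -0.77 ± 0.22 (adjusted p = 0.0219) for PLK3. Neither passed after the scaling (adjusted p = 0.114 and 0.198), and both lost the call without either miR-187 library (GADD45A 0.098 and 0.109, PLK3 0.0855 and 0.279), PLK3 also without miR-NC 2 (0.0621). BTG2, an antiproliferative cofactor of mRNA deadenylation, was at 2.11 and 2.03 FPKM with miR-187 and at 0.874 and 1.96 FPKM with miR-NC, so that the higher miR-NC library almost reached the miR-187 libraries (0.38 ± 0.26, adjusted p = 0.264).

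**Figure D2:**
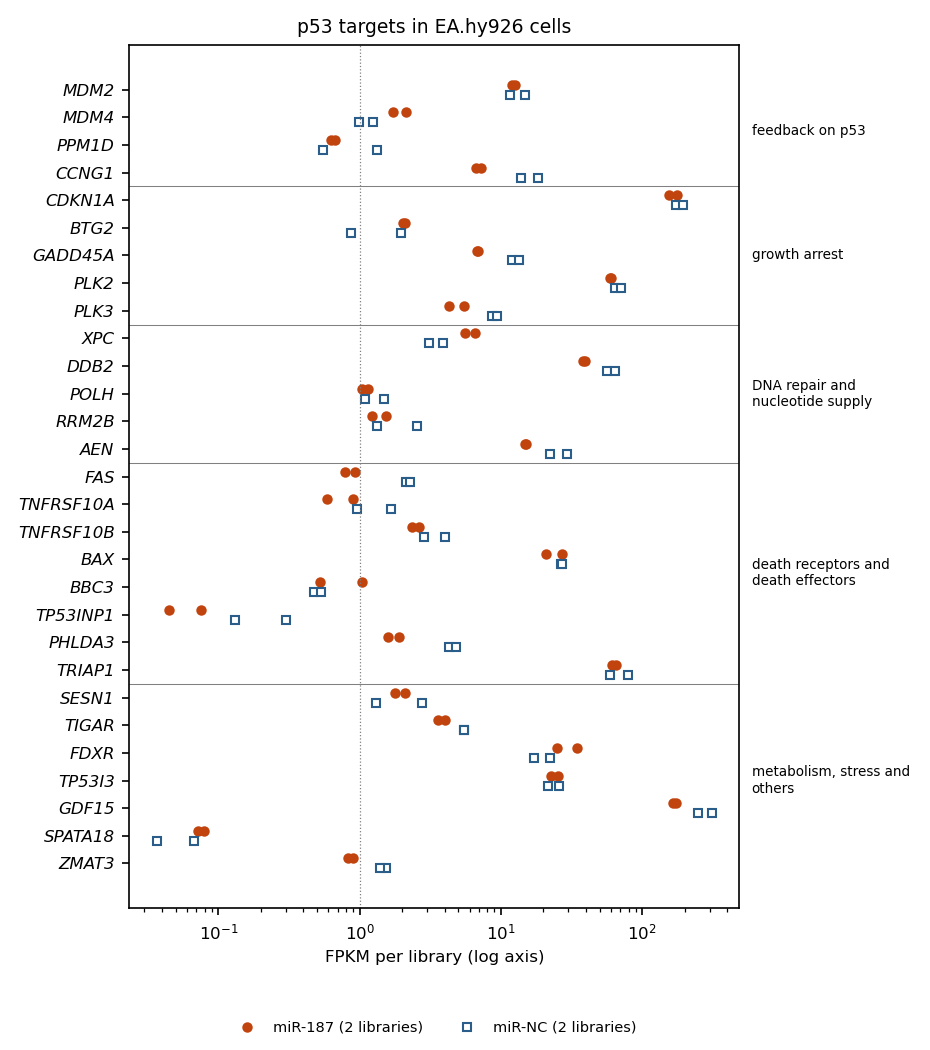
FPKM of the p53 targets in each library (x axis, log scale), with miR-187 libraries above the miR-NC libraries in each row, open symbols for miR-NC and a dotted line at 1 FPKM. CDKN1A and GDF15 are the most abundant, and SPATA18 and TP53INP1 lie below 1 FPKM in every library.

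In DNA repair, the 2 damage sensors of nucleotide excision repair lay on opposite sides of 0. DDB2, which finds ultraviolet lesions in chromatin and hands them on to XPC, was at 39.5 and 38.0 FPKM with miR-187, against 56.4 and 64.1 FPKM with miR-NC. The groups lay well apart, and DDB2 fell (-0.62 ± 0.14, adjusted p = 0.00768). XPC was at 5.58 and 6.57 FPKM with miR-187, against 3.11 and 3.87 FPKM with miR-NC. Both miR-187 libraries lay above both miR-NC libraries. The XPC log2 fold change of 0.66 ± 0.24 just missed the threshold (adjusted p = 0.0523), it ranked above 99.3% of all tested genes, and it passed after the scaling (1.06, adjusted p = 0.0209), with a pseudocount of 0.1 (0.0478) and without miR-NC 2 (0.0483). DDB2 did not pass after the scaling (-0.14, adjusted p = 0.389), and without miR-187 2 its adjusted p was 0.0615. XPC, at chr3:14145147-14178783 on the minus strand of GRCh38, shares 318 exon bases with LSM3 on the opposite strand. LSM3 averaged 88.5 FPKM with miR-187 and 81.5 FPKM with miR-NC, and no source used here says whether the counting used strand, so reads of the 2 genes may not be separable.

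AEN, a nuclease that p53 induces during apoptosis, was at 15.1 and 14.8 FPKM with miR-187, against 22.4 and 29.5 FPKM with miR-NC. It fell without overlap (-0.74 ± 0.18, adjusted p = 0.011), but not after the scaling (adjusted p = 0.158) or without miR-187 2 (0.0714) or miR-NC 2 (0.0577). POLH, the polymerase that copies past ultraviolet lesions, averaged 1.09 ± 0.074 FPKM with miR-187 and 1.29 ± 0.291 FPKM with miR-NC. RRM2B, the p53-inducible subunit of ribonucleotide reductase, averaged 1.38 ± 0.214 FPKM with miR-187 and 1.95 ± 0.866 FPKM with miR-NC (SD, n = 2 each). Neither POLH (adjusted p = 0.675) nor RRM2B (adjusted p = 0.41) passed the test, and the groups overlapped for both.

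Of the death receptors and effectors FAS and PHLDA3 fell, and BAX did not pass. FAS, the receptor that assembles CASP8 at the membrane, was at 0.934 and 0.787 FPKM with miR-187, against 2.14 and 2.26 FPKM with miR-NC. Its ratio of means was 0.392, and the log2(FPKM + 1) difference of -0.78 ± 0.22 (adjusted p = 0.0209) understates the change of so low a gene. FAS passed the filter only through the miR-NC libraries, so that it had to be lower with miR-187 to be tested as it was. It lost the call without miR-187 1 (0.0741), without miR-187 2 (0.155) and after the scaling (0.112). FAS also shares 380 exon bases with ACTA2 on the opposite strand, which averaged 22.3 FPKM with miR-187 and 8.46 FPKM with miR-NC.

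PHLDA3, which holds back the survival kinase AKT, was at 1.90 and 1.59 FPKM with miR-187, against 4.30 and 4.77 FPKM with miR-NC. Its miR-187 level was 0.385 of the miR-NC level, without overlap (-1.01 ± 0.24, adjusted p = 0.00932), and it lost the call after the scaling (-0.65, adjusted p = 0.0599) and without miR-187 1 (0.0526) or miR-187 2 (0.128). BAX, the pore former that p53 induces, was at 20.8 and 27.0 FPKM with miR-187 and at 26.4 and 26.9 FPKM with miR-NC. These groups overlapped (-0.16 ± 0.17, adjusted p = 0.469). TNFRSF10B, a receptor of the death ligand TRAIL, averaged 2.49 ± 0.197 FPKM with miR-187 and 3.44 ± 0.836 FPKM with miR-NC (SD, n = 2 each, adjusted p = 0.304). TRIAP1, a small mitochondrial protein that restrains apoptosis after p53 activation, averaged 63.0 ± 2.93 FPKM with miR-187 and 69.2 ± 14.8 FPKM with miR-NC (adjusted p = 0.569).

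Another 3 effectors lay too low to be tested. TNFRSF10A, the other TRAIL receptor that signals death, was at 0.592 and 0.905 FPKM with miR-187 and at 0.953 and 1.67 FPKM with miR-NC. BBC3, which encodes the BH3-only protein PUMA, was at 1.03 and 0.523 FPKM with miR-187 and at 0.478 and 0.534 FPKM with miR-NC, so the 2 groups overlapped. TP53INP1, which helps p53 activate death genes, stayed at 0.3 FPKM or less in all 4 libraries.

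Among the p53 targets of metabolism and stress, GDF15 fell and FDXR rose. GDF15, a secreted stress cytokine of the TGF-beta superfamily, was at 165 and 174 FPKM with miR-187, against 246 and 309 FPKM with miR-NC. It was among the most abundant of the 44 genes, and both miR-187 libraries were clearly below both miR-NC libraries. The log2 fold change of GDF15, at chr19:18374731-18389176 on the plus strand of GRCh38, was -0.70 ± 0.12 (adjusted p = 0.00202). The call held without each library in turn, but not after the scaling (-0.21, adjusted p = 0.255).

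FDXR, the ferredoxin reductase that feeds electrons to mitochondrial steroid and iron-sulfur synthesis, was at 25.0 and 34.5 FPKM with miR-187, against 17.2 and 22.3 FPKM with miR-NC. Both miR-187 libraries were above both miR-NC libraries, with the gap between the groups smaller than the gap between the 2 miR-187 libraries. FDXR rose by 0.56 ± 0.19 on the log2 scale (adjusted p = 0.0454), and by 1.03 after the scaling (adjusted p = 0.0255). Without miR-187 2 the value was 0.34 (adjusted p = 0.442) and without miR-NC 1 it was 0.38 (0.152), and the call was also lost with a pseudocount of 0.1 (0.0512) and in TPM (0.0548). TP53I3, a quinone oxidoreductase linked to oxidative stress, was at 25.2 and 22.5 FPKM with miR-187 and at 21.5 and 26.0 FPKM with miR-NC. Its overlapping values gave a log2 fold change of 0.01 ± 0.17 (adjusted p = 0.973), and it passed after median-of-ratios scaling (0.48, adjusted p = 0.0454) but not under quantile normalization (0.0647).

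The other metabolic and stress targets did not pass the test. SESN1, a sestrin that restrains mTORC1, averaged 1.94 ± 0.222 FPKM with miR-187 and 2.05 ± 1.03 FPKM with miR-NC (adjusted p = 0.985). TIGAR, a phosphatase that turns glycolysis toward the pentose phosphate pathway, averaged 3.82 ± 0.319 FPKM with miR-187 and 5.46 ± 0.00573 FPKM with miR-NC (SD, n = 2 each, adjusted p = 0.169). ZMAT3, an RNA-binding zinc finger protein, averaged 0.868 ± 0.0514 FPKM with miR-187 and 1.47 ± 0.0934 FPKM with miR-NC (adjusted p = 0.16), and like FAS it passed the filter only through the miR-NC libraries. SPATA18, which takes part in the quality control of mitochondria, was below 0.1 FPKM in all 4 libraries.

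In the BCL2 family BAK1 and BAD fell among the pro-apoptotic members, and BCL2L1 among the protective ones. BAK1, which with BAX forms the pore in the outer mitochondrial membrane, was at 4.89 and 4.70 FPKM with miR-187, against 10.3 and 14.6 FPKM with miR-NC. It had the lowest log2 fold change of the 37 tested members (-1.19 ± 0.23, adjusted p = 0.00304), lower than all but 2.61% of tested genes. BAK1, at chr6:33572547-33580293 on the minus strand of GRCh38, stayed lower after the scaling (-0.76, adjusted p = 0.0308) and without each library in turn.

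BAD, a BH3-only protein that neutralises BCL2L1 when unphosphorylated, was at 10.5 and 17.7 FPKM with miR-187, against 25.7 and 30.7 FPKM with miR-NC. The groups did not overlap (-0.99 ± 0.22, adjusted p = 0.00701), although the miR-187 libraries differed widely from each other. The call was lost after the scaling (-0.52, adjusted p = 0.2) and without miR-187 1 (0.0918) or miR-NC 2 (0.0691). BID, which CASP8 cuts to carry a death receptor signal to mitochondria, was at 23.0 and 23.1 FPKM with miR-187 and at 25.5 and 24.1 FPKM with miR-NC. This small gap did not pass (-0.10 ± 0.16, adjusted p = 0.64). BCL2L11, which encodes the BH3-only protein BIM, was below 0.1 FPKM in every library and listed at 0 in miR-NC 1.

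BCL2L1 encodes BCL-XL, which holds BAX and BAK1 inactive. It was at 8.41 and 9.27 FPKM with miR-187, against 12.1 and 15.6 FPKM with miR-NC. The fall was -0.58 ± 0.20 (adjusted p = 0.0455), close to the threshold, and it was lost without miR-187 1 (0.28), miR-187 2 (0.199) or miR-NC 2 (0.16) and after the scaling (-0.13, adjusted p = 0.529). MCL1, a short-lived protector of mitochondria, was at 1.88 and 1.62 FPKM with miR-187 and at 2.41 and 4.09 FPKM with miR-NC. It did not pass with all 4 libraries (-0.60 ± 0.26, adjusted p = 0.0954) and passed without miR-NC 1 (0.0244). BCL2L12, a divergent relative that has been tied to p53 and caspase inhibition, averaged 1.33 ± 0.233 FPKM with miR-187 and 2.58 ± 0.55 FPKM with miR-NC (SD, n = 2 each, adjusted p = 0.0699), and it shares 734 exon bases with IRF3 on the opposite strand.

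**Figure D3:**
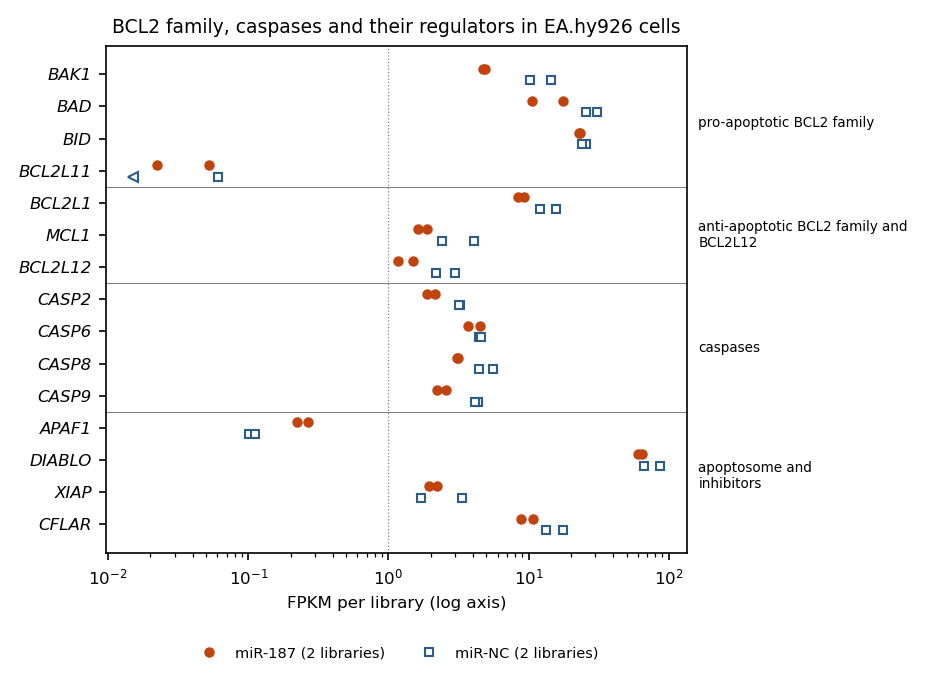
FPKM of the BCL2 family, caspases and their regulators in each library (x axis, log scale), with miR-187 libraries above the miR-NC libraries in each row, open symbols for miR-NC and a dotted line at 1 FPKM. BAK1 lies at 4.70 to 4.89 FPKM with miR-187 and at 10.3 to 14.6 FPKM with miR-NC, and DIABLO is the most abundant gene of the plot.

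None of the 4 caspases passed the test with all 4 libraries on the deposited values. CASP8, the member with a miR-187 seed match printed above, was at 3.09 and 3.12 FPKM with miR-187 and at 4.42 and 5.56 FPKM with miR-NC. The groups did not overlap, as in 65.4% of all tested genes in this direction, and the log2 fold change of -0.54 ± 0.24 (adjusted p = 0.1) lay 0.15 below that of the median tested gene. It passed without miR-NC 1 (-0.68, adjusted p = 0.0389). CASP9, the initiator caspase of the apoptosome, was at 2.59 and 2.21 FPKM with miR-187 and at 4.35 and 4.13 FPKM with miR-NC (-0.63 ± 0.24, adjusted p = 0.0621), and passed in TPM (0.0491). CASP2, a caspase activated in the PIDDosome, averaged 2.01 ± 0.18 FPKM with miR-187 and 3.22 ± 0.035 FPKM with miR-NC (SD, n = 2 each, adjusted p = 0.128). These 3 had groups that did not overlap, whereas those of CASP6, an executioner caspase, did, at 3.72 and 4.50 FPKM with miR-187 and 4.39 and 4.59 FPKM with miR-NC (-0.11 ± 0.23, adjusted p = 0.736).

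CFLAR was the regulator that fell. It encodes c-FLIP, a catalytically inactive relative of CASP8 that blocks death receptor signals, and it was at 10.8 and 8.83 FPKM with miR-187, against 13.3 and 17.7 FPKM with miR-NC. The log2 fold change was -0.60 ± 0.21 (adjusted p = 0.0443), and the call was lost without miR-187 1 (0.108), miR-187 2 (0.344) or miR-NC 2 (0.189) and after the scaling (0.511). DIABLO, which leaves mitochondria to release caspases from XIAP, was at 60.1 and 63.9 FPKM with miR-187 and at 66.8 and 87.2 FPKM with miR-NC (-0.30 ± 0.15, adjusted p = 0.138), and passed without miR-NC 1 (0.022). XIAP, the direct inhibitor of caspases, averaged 2.09 ± 0.199 FPKM with miR-187 and 2.53 ± 1.16 FPKM with miR-NC (adjusted p = 0.671). APAF1, the scaffold of the apoptosome, was too low to be tested, at 0.223 and 0.265 FPKM with miR-187 and 0.102 and 0.111 FPKM with miR-NC, with both miR-187 libraries higher.

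Ratios between members within a library do not depend on how the library is scaled, and they were compared without a test, since 2 libraries against 2 cannot give an exact permutation p below 0.33. MDM2 to MDM4 was 7.36 and 5.63 with miR-187, against 11.7 and 11.9 with miR-NC, so this ratio lay at 0.55 of its miR-NC value. MDM4 was near 1 FPKM with miR-NC (0.983 and 1.24), and neither gene passed the test. How many other pairs of genes separate in this way was not counted. BAX to BCL2L1 was 2.48 and 2.91 with miR-187, against 2.18 and 1.73 with miR-NC. BAX to MCL1 was 11.1 and 16.7 with miR-187, against 11.0 and 6.58 with miR-NC. Both ratios of BAX to a protective member were thus higher in each miR-187 library, the ratio to MCL1 by a narrow gap. Of the other pro-apoptotic members only BBC3, given below, was set against a protective member. The log2 fold changes of BAK1 (-1.19) and BAD (-0.99) were lower than those of BCL2L1 (-0.58) and MCL1 (-0.60). That of BID (-0.10) was higher. MCL1 is the least abundant of these genes, so the added 1 FPKM weighs most on it. The ratios of means, miR-187 over miR-NC, lay close together for BAD (0.499) and MCL1 (0.538). With a pseudocount of 0.1 the log2 fold changes were -1.04 for BAD and -0.81 for MCL1. Whether BAD fell more than MCL1 was not tested. BBC3 to BCL2L1 was also higher in each miR-187 library, at 0.123 and 0.0564 against 0.0395 and 0.0343 with miR-NC, although BBC3 lay below 1 FPKM in 3 of 4 libraries.

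Other ratios overlapped between the groups. CASP8 to CFLAR, the initiator caspase to its inhibitor, was 0.286 and 0.354 with miR-187 and 0.333 and 0.314 with miR-NC. XIAP to DIABLO was 0.0371 and 0.0305 with miR-187 and 0.0257 and 0.0384 with miR-NC. CDKN1A to PPM1D overlapped as well. A further 2 ratios were chosen after their values were seen. XPC to DDB2 was 0.141 and 0.173 with miR-187, against 0.0552 and 0.0605 with miR-NC, and BAK1 to BAX was 0.235 and 0.174 with miR-187, against 0.388 and 0.541 with miR-NC. The repair sensors thus differed 2.72-fold in their ratio, and BAK1 lay at 0.44 of its miR-NC level relative to BAX.

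**Figure D4:**
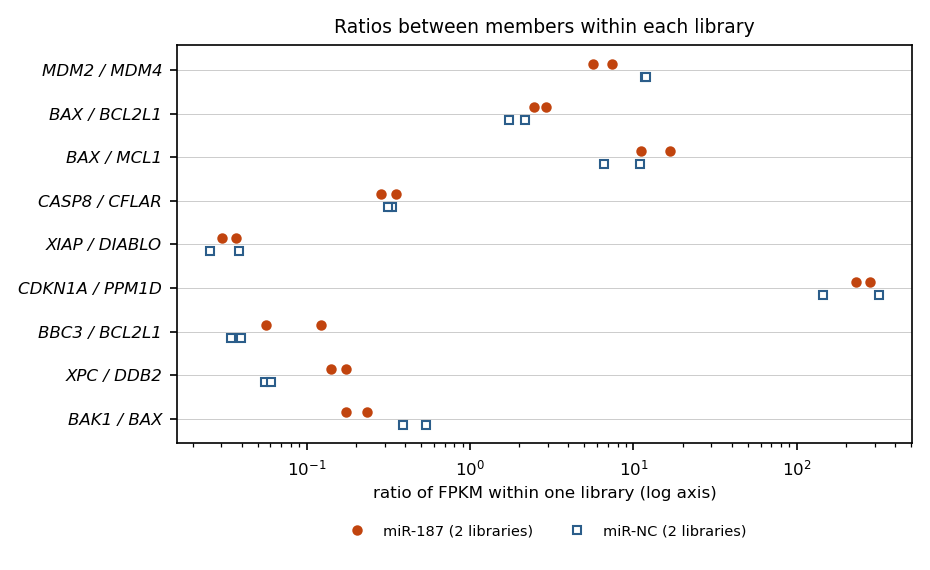
Ratios of FPKM between members within each library (x axis, log scale), with miR-187 libraries above the miR-NC libraries in each row and open symbols for miR-NC. MDM2 to MDM4 lies at 5.63 to 7.36 with miR-187 and at 11.7 to 11.9 with miR-NC, and CASP8 to CFLAR overlaps between the groups.

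The promoters of the members were searched for the p53 response element, which consists of paired decamers. RefSeq promoters of 300 bases, 250 before to 50 after the start in GRCh38.p14, were matched for 37 members. Both decamers had to match the consensus without a mismatch, with at most 13 bases between them. The whole element was found in 0 of 23 p53 targets and 0 of 14 BCL2 and caspase genes, and in 8 of all 27305 promoters (0.0293%). At so low a rate 0 was the likely outcome for lists of this size. The search by itself therefore cannot tell whether these genes carry an element with mismatches or one outside the window. A single decamer of the p53 consensus was found in 3 of the 23 p53 targets (13%), in 1 of the 14 BCL2 and caspase genes (7.14%) and in 6.54% of all promoters. The 4 decamers belong to members that were tested, and are shown in capitals with 8 bases on each side. In AEN the 8 bases after the decamer match the first 8 positions of a second decamer, which was not matched in full. They lie at chr5:58460209-58460218 on the minus strand for PLK2, chr6:33580340-33580349 on the minus strand for BAK1, chr15:88621306-88621315 on the plus strand for AEN and chr17:74872996-74873005 on the minus strand for FDXR. BAK1 and AEN fell, FDXR rose, and PLK2 did not pass the test.
PLK2: gcgggacaAGACTTGCTTcccggcca
BAK1: agtgggcgGGACATGCTCctgggcct
AEN: tcggagccGGGCTTGCCCgggcatgt
FDXR: gcaggagcGGGCTTGCCCtgcggagc

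Wider lists of the same pathways were read beside the members. Of 20 p53 regulators 10 were tested, and 3 fell (30%, against 27.3% of all tested genes) and none rose: KAT5, an acetyltransferase of p53, TP53RK, a kinase of p53, and USP7, which removes ubiquitin from MDM2 and p53. KAT5 was at 12.0 and 10.2 FPKM with miR-187, against 17.1 and 19.8 FPKM with miR-NC (-0.68, adjusted p = 0.0181), and none of the 3 passed after the scaling. TP53RK, like FAS, reached 1 FPKM only in the miR-NC libraries. KAT5 also lost the call without miR-187 1 (0.0635), miR-187 2 (0.213) or miR-NC 2 (0.0702), TP53RK without either miR-187 library (0.167 and 0.114), and USP7 without any 1 library (0.052 to 0.251). Of 38 other p53 targets 28 were tested. Of these, 2 fell (7.14%, against 27.3% of all tested genes) and 1 rose (3.57%, against 1.49%). After the scaling none of the 28 was lower and 5 were higher, with a list median of 0.09. Over all tested genes 3.7% were lower and 4.67% higher after the scaling. The 2 that fell were NINJ1, which ruptures the plasma membrane of dying cells (-1.17, adjusted p = 0.00327), and the peroxidase GPX1 (-0.50, adjusted p = 0.0118). Neither passed after the scaling, and GPX1 was not called without miR-187 1 (0.0635) or miR-NC 2 (0.102).

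Of 33 other apoptosis genes 22 were tested. Of these, 6 fell (27.3%, the same share as of all tested genes) and 1 rose (4.55%, against 1.49%). After the scaling 2 of the 22 were lower and 5 higher, against 3.7% and 4.67% of all tested genes, with a list median of 0.12. TNFRSF1A, the main receptor of TNF, was at 17.6 and 17.1 FPKM with miR-187, against 35.7 and 41.6 FPKM with miR-NC. It fell by 1.10 on the log2 scale (adjusted p = 0.00071) and by 0.63 after the scaling (adjusted p = 0.023). BNIP3, a mitochondrial BH3-like protein of hypoxia, fell on both scales (-0.99, adjusted p = 0.00213, and -0.52, adjusted p = 0.041). CASP1, the inflammatory caspase (-0.90, adjusted p = 0.0113), and VDAC2, the mitochondrial channel that holds BAK1 (-0.57, adjusted p = 0.00473), fell on the deposited values only. CASP1 was not called without miR-187 1 (0.131) or miR-187 2 (0.0994). The medians of these lists were -0.47 for the regulators, -0.24 for the other p53 targets and -0.23 for the other apoptosis genes, against -0.39 for all tested genes.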

How the data were processed

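The authors deposited 1 table of FPKM values per gene and library for 2 miR-187 and 2 miR-NC libraries of EA.hy926 cells. The submitters' processing notes name HISAT2, StringTie, DESeq2 and hg19, with no versions or roles. FPKM divides by transcript length and mapped fragments, so other genes read lower where a few abundant transcripts dominate a library. Whole reads could not be recovered from the low values, so depth is unknown and no counting interval is given. An FPKM of 0 is written as listed at 0, and StringTie may divide reads between similar genes.

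Copies on the Y pseudoautosomal region (49) were left out. Of 62443 identifiers 58611 were matched to symbols. Values were analysed as log2(FPKM + 1), on which changes of low genes are understated. Genes that reached 1 FPKM in 2 or more libraries entered a limma 3.58.1 fit (R 4.3.3) on group, two-sided, with an intensity trend and Benjamini-Hochberg adjustment over 8196 genes. The threshold was 0.05, with 2 residual and 10.9 prior degrees of freedom. "Rose", "fell" and "called" mean passing it. The fit was tested on simulated data. Alternatives were a pseudocount of 0.1, no filter, median-of-ratios scaling, TPM, quantile normalization, a replicate block and leaving out each library.

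All 44 members were named and, of each wider list, up to 4 called genes per direction with the smallest adjusted p. Some items that the rule names are not reported here. The members and lists were chosen with earlier results of these data known. Mimic sequences come from the study's list, 3′ UTRs from GENCODE on GRCh38, and promoters and the mature miRNA from RefSeq. No coordinate was converted from hg19. Python 3.11.15, pandas 2.3.3, numpy 2.4.6 and matplotlib 3.10.9 were used.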

Additional observations from a re-analysis of the deposited data

How the results depend on the processing

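With all libraries and deposited FPKM, 2236 genes were lower and 122 higher. Without a filter no gene or member was called in 25001 genes by limma, with 4189 genes at an unadjusted p under 0.05. Median-of-ratios scaling gave 303 lower and 383 higher genes, 2 lower and 3 higher members (1 and 3 of the p53 targets, 1 lower BCL2 or caspase gene), and medians of 0.089 for p53 targets and -0.15 for BCL2 and caspase genes. Quantile normalization gave 319 and 293 genes, 2 lower and 3 higher members (XPC, FDXR and MDM4 in place of TP53I3; p53 targets 1 and 3, BCL2 and caspase genes 1 lower) and medians of 0.10 and -0.14. TPM gave 13 lower members and none higher (0 higher p53 targets), since FDXR had an adjusted p of 0.0548. Same-numbered libraries did not deviate together (correlation -0.06). With 2 libraries per group this cannot decide whether the numbers mark pairs, and the labels do not say. The replicate block called 2491 genes lower and 142 higher and changed no member's call. Scaling with the replicate block gave 200 lower and 244 higher genes, 1 lower and 2 higher members, 0 lower and 2 higher p53 targets, 1 lower BCL2 or caspase gene and medians of 0.089 and -0.15.

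Leaving out 1 library gave 822 to 2719 lower and 72 to 119 higher genes, 4 to 14 lower and 0 to 2 higher members, 2 to 7 lower and 0 to 2 higher p53 targets, 1 to 7 lower BCL2 or caspase genes, and medians of -0.35 to -0.089 for p53 targets and -0.68 to -0.41 for BCL2 and caspase genes. The lowest counts of lower members came without miR-187 2 (4), miR-187 1 (5) and miR-NC 2 (6). Log2 fold changes that changed sign ranged over -0.24 to 0.086 (MDM2), -0.25 to 0.0063 (POLH), -0.58 to 0.0285 (RRM2B), -0.34 to 0.018 (BAX), -0.33 to 0.10 (TRIAP1), -0.36 to 0.34 (SESN1), -0.12 to 0.14 (TP53I3), -0.22 to 0.0021 (CASP6) and -0.49 to 0.19 (XIAP).

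None of the genes with a changed sign under another scaling was called. Under median-of-ratios scaling, with and without the block, they were MDM2 0.38, CDKN1A 0.33, PLK2 0.32, POLH 0.14, RRM2B 0.032, TNFRSF10B 0.032, BAX 0.31, TRIAP1 0.37, SESN1 0.32, BID 0.37, CASP6 0.29, DIABLO 0.19 and XIAP 0.19. Under quantile normalization they were MDM2 0.36, CDKN1A 0.083, PLK2 0.17, POLH 0.25, RRM2B 0.11, TNFRSF10B 0.076, BAX 0.23, TRIAP1 0.23, SESN1 0.40, TIGAR 0.019, BID 0.32, CASP6 0.34, DIABLO 0.040 and XIAP 0.25. TP53I3 was -0.024 in TPM and SESN1 0.015 with a pseudocount of 0.1. CCNG1 and BAK1 passed under every alternative with a filter except that CCNG1 was not called with scaling and the block together (adjusted p = 0.0515 in limma, against 0.00281 to 0.0399 under the other alternatives with a filter except the block alone, at 7.62e-05). The cause of these differences was not tested, and the depth needed to place a counting limit on them is unknown.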
